A study of Homo sapiens with 6 samples.

Results

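Genes of developmental transcription factor families and of nuclear receptors were examined in Huh7 cells, an established line from a human hepatocellular carcinoma, after knockdown of the tyrosine kinase gene ABL1. The members were chosen by name: every transcript row whose symbol begins like a HOX, FOX, SOX, KLF, T-box, GATA, LHX, sine oculis, PAX, NKX, ONECUT, HNF, CEBP, ID, NFI, TEAD or nuclear receptor gene. The genes FOXA1, FOXA3, FOXQ1, SOX9, GATA6, ONECUT2, CEBPD, NR0B2 and TEAD1 and the FOXRED genes were left aside by the same rule, so that 125 of the 135 matching rows remained. These 125 rows carry 117 symbols and lie in a table of 10191 rows. The rule reads names only, but it was set with earlier results of these data known. It also takes in names that are not transcription factor genes. Of these, 28 rows of 25 symbols are antisense or divergent RNAs or unrelated genes such as ESRP2 and PAXX, and they are described separately at the end.

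In all, 6 RNA-seq libraries of total RNA were analysed, all from Huh7 cells grown in DMEM and sampled 1 week after puromycin selection for a short hairpin RNA (shRNA). The control group has a scrambled shRNA (3 libraries) and the knockdown group an shRNA against ABL1 (3 libraries), so that both groups carried a hairpin and had been through the same drug selection. The labels do not tell whether replicates are separate cultures, and all p-values below therefore describe only how much these 6 libraries vary, possibly for technical reasons. Libraries held between 6651413 and 10487862 counted reads. On the scale the authors set, scrambled libraries had a normalized total of 8.65 ± 0.0857 M counts (M for mega, SD, n = 3) and shRNA libraries one of 7.67 ± 0.137 M counts (SD, n = 3).

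The transcription factors of these families bind DNA and set the transcription of other genes. HOX, NKX and sine oculis factors use a homeodomain, FOX factors a forkhead domain, SOX factors an HMG box, KLF factors zinc fingers and TBX factors a T-box, and in the embryo they mark out body axes and organs. ID proteins lack a DNA-binding domain and act by sequestering basic helix-loop-helix E proteins. Nuclear receptors are factors whose activity is set by small ligands, or, for the orphan receptors, by their abundance and partners. In liver, HNF, CEBP, ONECUT and nuclear receptor genes are known for maintaining hepatocyte metabolism.

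Promoter sequences are given for 4 members because each changed at least 2-fold on the authors' scale and kept its call under every processing alternative that gave it a value, and because the start of its RefSeq promoter lay within 25 bases of the start of the measured transcript in the annotation. They are the 200 bases before the RefSeq start in GRCh38.p14, written 5′ to 3′ on the gene's strand. Capitals mark matches, on either strand, to the TATA box (TATAAA), the CCAAT box (CCAAT), the GC box (GGGCGG), the MYC E-box (CACGTG), the AP-1 site (TGANTCA) or the nuclear receptor half-site (AGGTCA). HOXA7 and NKX2-8 rose with the ABL1 shRNA, and FOXK1 and SIX2 fell. HOXA7 was read from chr7:27156676-27156875 (minus strand), NKX2-8 from chr14:36582615-36582814 (minus strand), FOXK1 from chr7:4682095-4682294 (plus strand) and SIX2 from chr2:45009453-45009652 (minus strand).
HOXA7: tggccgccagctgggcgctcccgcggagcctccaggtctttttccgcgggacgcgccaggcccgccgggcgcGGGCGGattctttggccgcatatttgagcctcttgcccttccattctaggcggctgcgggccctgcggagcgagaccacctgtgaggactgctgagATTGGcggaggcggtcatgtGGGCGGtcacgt
NKX2-8: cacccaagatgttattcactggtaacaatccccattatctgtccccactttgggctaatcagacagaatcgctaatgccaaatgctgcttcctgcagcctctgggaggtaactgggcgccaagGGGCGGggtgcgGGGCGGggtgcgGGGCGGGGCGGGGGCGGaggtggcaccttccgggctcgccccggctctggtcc
FOXK1: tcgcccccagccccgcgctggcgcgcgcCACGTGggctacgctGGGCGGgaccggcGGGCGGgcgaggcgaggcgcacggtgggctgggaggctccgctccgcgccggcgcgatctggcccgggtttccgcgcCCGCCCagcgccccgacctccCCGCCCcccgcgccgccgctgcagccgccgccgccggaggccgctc
SIX2: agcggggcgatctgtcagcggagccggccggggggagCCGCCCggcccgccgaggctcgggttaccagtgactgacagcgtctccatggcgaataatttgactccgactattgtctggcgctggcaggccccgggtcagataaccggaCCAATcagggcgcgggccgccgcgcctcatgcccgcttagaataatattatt

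All 4 windows were rich in G and C, at 69.0% for HOXA7, 64.0% for NKX2-8, 85.0% for FOXK1 and 64.5% for SIX2. Each held at least 1 GC box, a sequence bound by SP and KLF proteins: there were 5 in NKX2-8, 4 in FOXK1, 2 in HOXA7 and 1 in SIX2. None of the 4 had the letters of the TATA box, the AP-1 site or the nuclear receptor half-site. Of the 90 tested member genes, 61 had an entry in the RefSeq promoter table. The first entry of each gene was used, whether or not its start lay near that of the measured transcript. Of 9 candidates for the sequences above, 4 lay within 25 bases of it. A GC box was found in 59.0% of these 61 windows and in 39.9% of all 27305 promoters of the same length, and the median GC content was 66.0% against 58.5%. The CCAAT box was in 36.1% of the member windows (28.9% of all promoters), the MYC E-box in 14.8% (5.62%), the nuclear receptor half-site in 4.92% (9.82%), the TATA box in 3.28% (8.92%) and the AP-1 site in 1.64% (5.39%). Among members with a promoter entry, 6 of 11 that rose, 14 of 19 that fell and 16 of 31 that were not called had a GC box. These matches describe the letters only.

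The target of the hairpin was examined first. The ABL1 row NM_007313 had normalized counts of 73.4, 71.7 and 71.3 in the scrambled libraries and of 13.7, 10.2 and 9.28 in the shRNA libraries. It fell 6.53-fold, from 72.1 ± 1.09 to 11.1 ± 2.33 (SD, n = 3 each; log2 change −2.62, SE 0.26, limma adjusted p = 4.11e-06). The second ABL1 row, NM_005157, had few reads and went the other way. Scrambled libraries gave 9.17, 6.72 and 10.3, against 17.6, 19.2 and 24.8 with the ABL1 shRNA (log2 change 1.15, limma adjusted p = 0.0180). Only its higher group lifted this row past the filter at a mean of 10 (means 8.74 scrambled, 20.5 shRNA). That rise lost its call without scrambled replicate 2 (adjusted p = 0.0501) or shRNA replicate 3 (adjusted p = 0.0747). With the reads of both rows summed, ABL1 fell by 1.33 on the log2 scale (adjusted p = 0.000116).

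A transcript was tested when its mean normalized count over the 6 libraries was at least 10, which 93 of the 125 member rows (90 genes) passed. Log2 changes are shRNA group means minus scrambled group means on the log2(normalized count + 1) scale, which understates changes of transcripts with few reads. A transcript is said to have risen or fallen when its Benjamini-Hochberg adjusted p, from limma over all 8600 transcripts tested, was below 0.05. Of the 93 tested members, 13 rose, 28 fell and 52 did not pass. Of all transcripts tested, 51.9% were called, 24.5% as risen and 27.4% as fallen, and the members' share was 44.1%. A change of at least 2-fold was called as a rise for 6 members and as a fall for 13, against 7.92% and 9.02% of all tested transcripts. In 51 members the values of the groups did not overlap (19 higher, 32 lower), while 58.9% of all transcripts had groups that did not overlap. The median log2 change was −0.07 for the members and 0.00 for all transcripts.

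The balance of rises and falls depended on how the libraries were scaled. With each library scaled to the same total, which raises the median log2 change of all transcripts by 0.18, 25 members rose and 19 fell, and over the whole table the split moved from 2105 rises and 2355 falls to 2982 and 1690. The members' median log2 change was then 0.10 and that of all transcripts 0.18. Quantile normalization gave 17 rises and 25 falls among the members, and median-of-ratios scaling 13 and 28. Under all 4 scalings, 31 members were called the same way, 12 as risen and 19 as fallen, and no member was called in opposite directions. Equal totals removed 9 falls, among them those of FOXD1, ID4, KLF15, SOX13, SOX15, TBX10, TBX4 and FOXO3B.

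**Figure D1:**
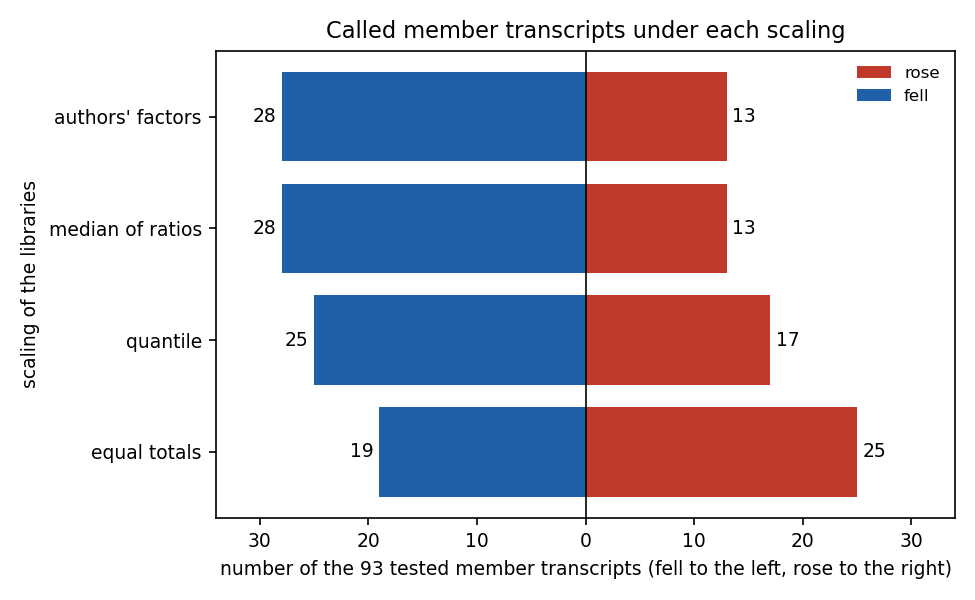
Number of the 93 tested members called as risen (right, red) or fallen (left, blue) by limma under 4 scalings of the libraries. Falls outnumber rises with the authors' factors (28 against 13), with median-of-ratios scaling (28 against 13) and with quantile normalization (25 against 17), while rises outnumber falls with equal totals (25 against 19).

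The share of members called was read within bands of abundance, since precision grows with the number of reads and the members were less abundant than the table (median mean count 66.0 against 191). Between mean counts of 10 and 100, 42.0% of 50 members were called and 38.5% of all transcripts. Between 100 and 1000 the shares were 44.8% of 29 members and 58.2% of all, and from 1000 upwards 50% of 14 members and 66.0% of all. The shares of the members lay above that of the table in the lowest band and below it in the other two. No test of these differences was made.

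**Figure D2:**
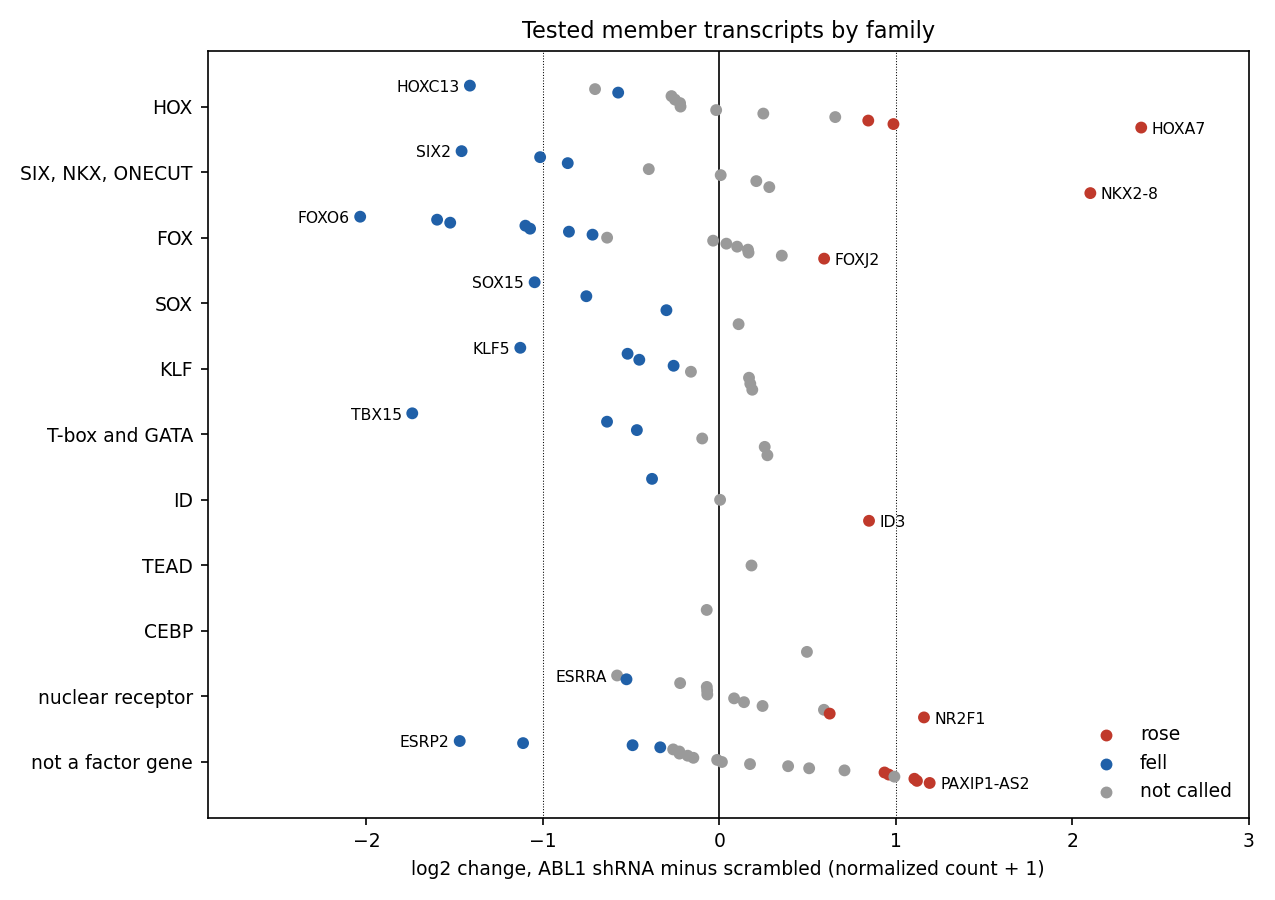
Log2 change of each tested member by family (horizontal axis, shRNA minus scrambled, on the log2(normalized count + 1) scale), each point being a transcript coloured by its call. HOXA7 at 2.39 and NKX2-8 at 2.10 lie farthest to the right and FOXO6 at −2.03 farthest to the left, and each family with more than 1 called member apart from SOX, KLF and T-box holds calls in both directions on the authors' scale.

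The HOX genes lie in clusters whose order along the chromosome follows their order of use along the body axis. Of the 13 tested HOX genes, 3 rose and 2 fell, so that 38.5% were called. Of all transcripts 51.9% were called, 24.5% as risen and 27.4% as fallen. In the HOXA cluster 3 of 5 tested genes rose, in the HOXC cluster 2 of 5 fell, and in the HOXD cluster none of 3 passed. Differences between the clusters were not tested. HOXA7, a trunk patterning gene (chr7:27153716-27156677, minus strand, 2 exons), had normalized counts of 8.34, 10.1 and 7.51 in the scrambled libraries and of 50.9, 47.5 and 49.5 in the shRNA libraries. All shRNA values were several times the highest scrambled value. The rise was 5.70-fold, from 8.64 ± 1.32 to 49.3 ± 1.71 (SD, n = 3 each; log2 change 2.39, SE 0.29, limma adjusted p = 2.07e-05). It rests on 10, 9 and 8 reads in scrambled and 52, 42 and 48 reads in shRNA libraries. HOXA7 is also 1 of 5 tested members with a group mean under 10, which passed the filter through their other group. Of these 5, 3 were called: HOXA7, FOXE3 and PAXIP1-AS2.

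HOXA11, a limb and urogenital patterning gene, had 14.2, 17.9 and 14.1 in scrambled and 31.3, 33.9 and 28.9 in shRNA libraries, without overlap. It rose 2.04-fold (log2 change 0.99, limma adjusted p = 0.0113). HOXA5, which is known for lung and thoracic patterning, had 23.3, 20.2 and 12.2 against 37.2, 40.7 and 23.7. The groups of HOXA5 only just separate, and its rise (log2 change 0.84, limma adjusted p = 0.0482) was lost without scrambled replicate 2 or 3 or shRNA replicate 1 or 2, with adjusted p between 0.0588 and 0.178. It was also lost under quantile normalization, voom weights, no variance trend and no filter. HOXA13, the most posterior gene of the cluster, had a log2 change of 0.66 with separate groups (limma adjusted p = 0.0894), and passed with equal totals (adjusted p = 0.0372), without a variance trend (adjusted p = 0.0494) and without scrambled replicate 2 (adjusted p = 0.0434). HOXA4 had a log2 change of −0.22 (limma adjusted p = 0.566). HOXA2, HOXA3 and HOXA9 were below the filter.

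The antisense RNA HOXA-AS2, whose gene model overlaps that of HOXA4 by 254 bases on the opposite strand, had 32.5, 31.4 and 31.0 in scrambled and 70.4, 75.7 and 64.0 in shRNA libraries. The scrambled values were nearly equal and all shRNA values were higher. It rose 2.22-fold (log2 change 1.12, limma adjusted p = 0.000567). The sources used here do not give the strand setting of the counting, so reads of an antisense RNA and its overlapping partner cannot be told apart.

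In the HOXC cluster, HOXC13, a hair and nail differentiation gene (chr12:53938765-53946544, plus strand, 2 exons), had 93.4, 85.2 and 118 in scrambled and 31.3, 41.8 and 36.1 in shRNA libraries. Every scrambled value was far above every shRNA value. HOXC13 fell 2.72-fold, from 98.9 ± 17.2 to 36.4 ± 5.27 (SD, n = 3 each; log2 change −1.41, SE 0.21, limma adjusted p = 0.000112). HOXC10, a hindlimb and lumbar patterning gene, had 1281, 1432 and 1357 against 913, 1008 and 821, again with no overlap. It fell 1.48-fold, from 1357 ± 75.5 to 914 ± 93.5 (SD, n = 3 each; log2 change −0.57, SE 0.09, limma adjusted p = 0.000198). HOXC11, HOXC9 and HOXC8 had log2 changes of −0.70, −0.02 and −0.25 and did not pass. In the HOXD cluster, the log2 changes were −0.27 for HOXD1, 0.25 for HOXD3 and −0.22 for HOXD4. With equal totals 4 HOX genes rose and 2 fell, the added rise being that of HOXA13.

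**Figure D3:**
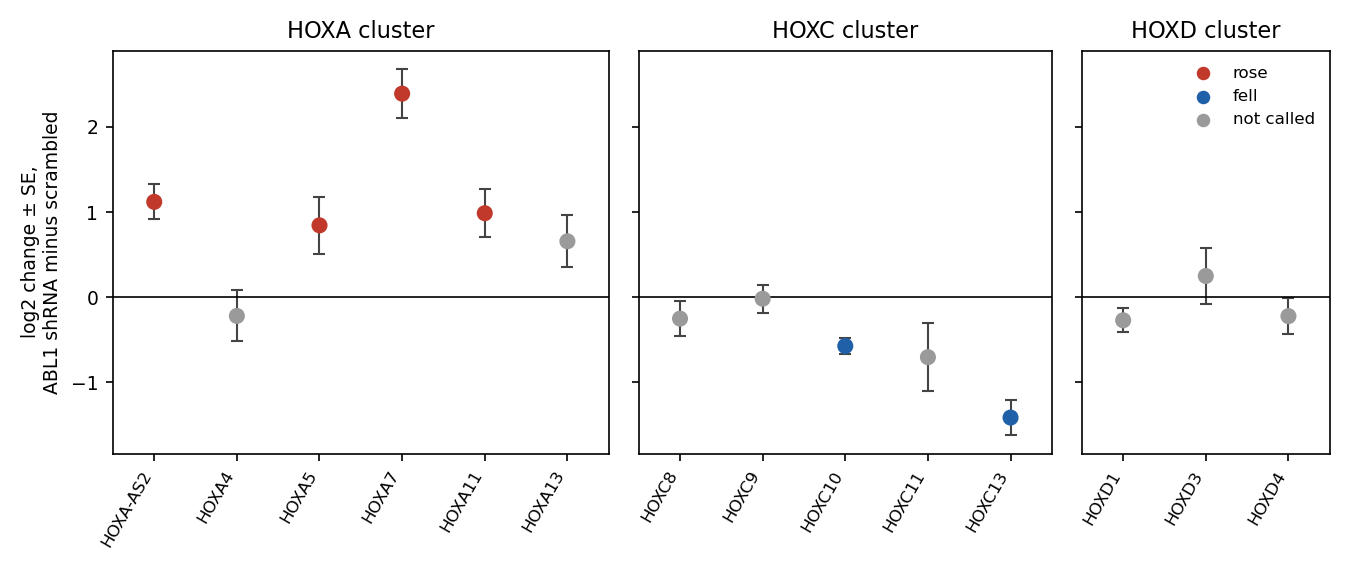
Log2 change (vertical axis, shRNA minus scrambled, bars of 1 SE) of the tested HOX genes and of HOXA-AS2, with the HOXA, HOXC and HOXD clusters in separate panels. HOXA7, HOXA11 and HOXA5 lie above 0 and HOXC13 and HOXC10 below it, and the 3 HOXD genes lie between −0.27 and 0.25.

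Among the other homeodomain genes (NKX and sine oculis genes and ONECUT1), 8 were tested, of which 1 rose and 3 fell, and with equal totals 2 rose and 3 fell. The share called on the authors' scale was 50%, beside 51.9% of all transcripts. NKX2-8, a gene of the NK-2 family expressed in foregut endoderm (chr14:36580579-36582607, minus strand, 2 exons), had 32.5, 22.4 and 32.8 in scrambled and 115, 123 and 144 in shRNA libraries. Every shRNA value was far above the highest scrambled value. It rose 4.36-fold, from 29.3 ± 5.93 to 128 ± 15 (SD, n = 3 each; log2 change 2.10, SE 0.21, limma adjusted p = 4.37e-06). The related NKX3-2, a skeletal patterning gene, fell (log2 change −0.86, limma adjusted p = 0.00416).

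SIX2, a kidney progenitor factor (chr2:45005161-45009430, minus strand, 2 exons), had 34.2, 38.1 and 44.1 in scrambled and 14.7, 11.3 and 14.4 in shRNA libraries. It fell 2.88-fold (log2 change −1.46, SE 0.28, limma adjusted p = 0.000926), with no overlap. SIX4, a muscle and sensory organ factor, had 385, 326 and 442 against 196, 163 and 209. It fell 2.03-fold (log2 change −1.02, SE 0.14, limma adjusted p = 6.09e-05), again without overlap. SIX5 had a log2 change of 0.01 and did not pass. ONECUT1, a hepatocyte and pancreas factor also named HNF6, had a log2 change of 0.21 (limma adjusted p = 0.263) and passed as a rise with equal totals.

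The forkhead family had 7 falls and 1 rise among 15 tested genes, and its share of calls, 53.3%, was near the 51.9% of all transcripts. By direction, 46.7% of the tested forkhead genes fell and 6.67% rose, against 27.4% and 24.5% of all transcripts. That difference was not tested. The median log2 change of the family was −0.64, and the counts were 5 falls and 3 rises with equal totals. FOXK1, a repressor of autophagy and starvation genes that also promotes glycolysis (chr7:4682309-4771443, plus strand, 9 exons), had 1898, 1565 and 1641 in scrambled and 870, 711 and 801 in shRNA libraries. No shRNA library came near the lowest scrambled value. FOXK1 fell 2.14-fold, from 1701 ± 174 to 794 ± 79.5 (SD, n = 3 each; log2 change −1.10, SE 0.10, limma adjusted p = 1.59e-06). Its paralog FOXK2 had 2641, 2368 and 2421 against 2551, 2354 and 2740, so that the groups overlapped (log2 change 0.04, SE 0.08, limma adjusted p = 0.702). FOXK2 passed as a rise with equal totals.

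FOXN2 had 755, 672 and 781 in scrambled and 426, 506 and 412 in shRNA libraries. It fell 1.64-fold (log2 change −0.72, SE 0.10, limma adjusted p = 9.94e-05), without overlap. FOXJ2 was the only forkhead gene called as risen on the authors' scale, with 311, 291 and 269 against 471, 390 and 458. The rise of FOXJ2 was 1.51-fold (log2 change 0.59, SE 0.11, limma adjusted p = 0.000668). The groups of both genes were separate.

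The other forkhead genes that fell had lower counts. FOXO6, a brain-expressed FOXO factor, had 60, 35.9 and 58.2 in scrambled and 10.8, 5.65 and 23.7 in shRNA libraries, a fall of 3.84-fold with wide spread (log2 change −2.03, SE 0.43, limma adjusted p = 0.00162). FOXD2 had 118, 87.4 and 124 against 55.8, 32.8 and 27.9 (log2 change −1.52, limma adjusted p = 0.000329). FOXE3, a lens factor, had 22.5, 14.6 and 24.4 against 8.80, 5.65 and 4.13 (log2 change −1.60, limma adjusted p = 0.00635). In these 3 genes every shRNA value was below every scrambled value. FOXD2 and FOXE3 are neighbours on chromosome 1, 17965 bases apart on the same strand, and the antisense RNA FOXD2-AS1 between them had a log2 change of 0.39 that did not pass (limma adjusted p = 0.0986) except as a rise with equal totals.

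The call of FOXD1, a renal stroma factor, was lost when single libraries were left out. FOXD1 fell by 0.85 on the log2 scale (limma adjusted p = 0.0450), and the call was lost in 5 of 6 fits that left a library out, all but that without scrambled replicate 1 (adjusted p between 0.0533 and 0.179). It was also lost with equal totals and voom weights. FOXE1, a thyroid factor, had a log2 change of −0.64 with separate groups (limma adjusted p = 0.0517) and passed as a fall with quantile normalization (adjusted p = 0.0281). FOXO1, the insulin-responsive regulator of gluconeogenesis, had a log2 change of 0.16 and did not pass on the authors' scale, but passed as a rise with quantile normalization (adjusted p = 0.0235) and with equal totals (adjusted p = 0.00617). FOXJ1, a factor of ciliated cells, had a log2 change of −0.04 and did not pass.

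In the SOX family 3 of 4 tested genes fell, beside 27.4% of all transcripts. SOX12, an activator of the same subgroup as SOX4, had 5744, 4405 and 5574 in scrambled and 3166, 2629 and 3534 in shRNA libraries. It fell 1.69-fold, from 5241 ± 729 to 3110 ± 455 (SD, n = 3 each; log2 change −0.75, SE 0.12, limma adjusted p = 0.000169), without overlap. SOX4 itself had 8487, 6274 and 7636 against 7595, 7372 and 9115, with overlapping groups (log2 change 0.11, limma adjusted p = 0.430), and passed as a rise with equal totals and with quantile normalization. SOX13 fell by 0.30 on the log2 scale (limma adjusted p = 0.00996) and lost its call with equal totals, quantile normalization and no variance trend. SOX15 fell by 1.05 (limma adjusted p = 0.0415), and only the fit without shRNA replicate 3 kept that call when a library was left out (adjusted p between 0.0529 and 0.149 in the other 5). SOX15 also lost its call with equal totals and no variance trend. With equal totals 1 SOX gene rose and 1 fell.

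Of 8 tested KLF genes 4 fell and none rose on the authors' scale, while 3 fell and 1 rose with equal totals. The share called on the authors' scale was 50%, near the 51.9% of all transcripts. KLF5, an epithelial proliferation factor (chr13:73058792-73077542, plus strand, 4 exons), had 489, 253 and 387 in scrambled and 139, 148 and 221 in shRNA libraries. The scrambled values were widely spread, yet the lowest of them exceeded the highest shRNA value. KLF5 fell 2.22-fold, from 376 ± 118 to 169 ± 44.9 (SD, n = 3 each; log2 change −1.13, SE 0.22, limma adjusted p = 0.0010). KLF16, a GC-box binding repressor, and KLF12, a repressor of AP-2 alpha, fell by 0.52 and 0.45 on the log2 scale (limma adjusted p = 0.000590 and 0.00114). KLF15, a regulator of hepatic amino acid and glucose metabolism, fell by 0.26 (limma adjusted p = 0.0226) and lost the call without scrambled replicate 1 or 3 or shRNA replicate 1 or 2 (adjusted p between 0.0530 and 0.0853). KLF15 also lost it with equal totals, quantile normalization and no variance trend (adjusted p between 0.0564 and 0.411).

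KLF13 showed 1 library apart from the rest, with 338, 285 and 281 in scrambled and 662, 252 and 230 in shRNA libraries. shRNA replicate 1 was the highest of the 6, and the other shRNA values were below all scrambled values. Its log2 change was 0.17 (limma adjusted p = 0.663), and −0.32 without shRNA replicate 1 (adjusted p = 0.0799). KLF3, KLF2 and KLF9 had log2 changes of 0.18, 0.19 and −0.16 and did not pass, and KLF3 passed as a rise with equal totals and with quantile normalization.

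Among 6 tested T-box genes 3 fell and none rose on the authors' scale, and no GATA gene reached the filter. The share called was 50%, near the 51.9% of all transcripts. TBX15, a skeletal and adipose patterning gene (chr1:118883046-118989556, minus strand, 8 exons), had 49.2, 41.5 and 44.1 in scrambled and 14.7, 11.3 and 12.4 in shRNA libraries. These groups lie far apart. TBX15 fell 3.51-fold, from 44.9 ± 3.93 to 12.8 ± 1.72 (SD, n = 3 each; log2 change −1.74, SE 0.27, limma adjusted p = 0.000190). TBX10 fell by 0.64 (limma adjusted p = 0.0308), lost without scrambled replicate 1 or 3 or shRNA replicate 1 or 3 (adjusted p between 0.0611 and 0.120), and TBX4, a hindlimb factor, fell by 0.47 (limma adjusted p = 0.0265), lost without scrambled or shRNA replicate 2 (adjusted p = 0.0751 and 0.104). TBX2, TBX6 and TBX19 had log2 changes of 0.26, 0.27 and −0.10 and did not pass, and TBX2 passed as a rise with quantile normalization. With equal totals TBX15 alone of the family fell and TBX2 rose.

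The 3 ID genes, whose proteins share the helix-loop-helix that captures E proteins and which are textbook BMP targets, gave 1 rise, 1 fall and 1 gene that did not pass. ID3 (chr1:23557918-23559794, minus strand, 3 exons) had 2420, 2386 and 2375 in scrambled and 4089, 3998 and 4899 in shRNA libraries. The scrambled values were within a narrow range and every shRNA value was far above it. ID3 rose 1.81-fold, from 2394 ± 23.7 to 4329 ± 496 (SD, n = 3 each; log2 change 0.85, SE 0.08, limma adjusted p = 3.43e-06). ID2 had 2406, 2791 and 3019 against 2699, 2725 and 2782, with overlap (log2 change 0.00, SE 0.09, limma adjusted p = 0.970). ID4 had 1134, 817 and 965 against 729, 667 and 832, also with overlap. ID4 fell 1.31-fold (log2 change −0.38, limma adjusted p = 0.0181), a call lost without scrambled replicate 1 or 3 or shRNA replicate 2 (adjusted p between 0.0518 and 0.0808). It was also lost with equal totals, quantile normalization or no variance trend. The difference between ID genes was not itself tested.

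**Figure D4:**
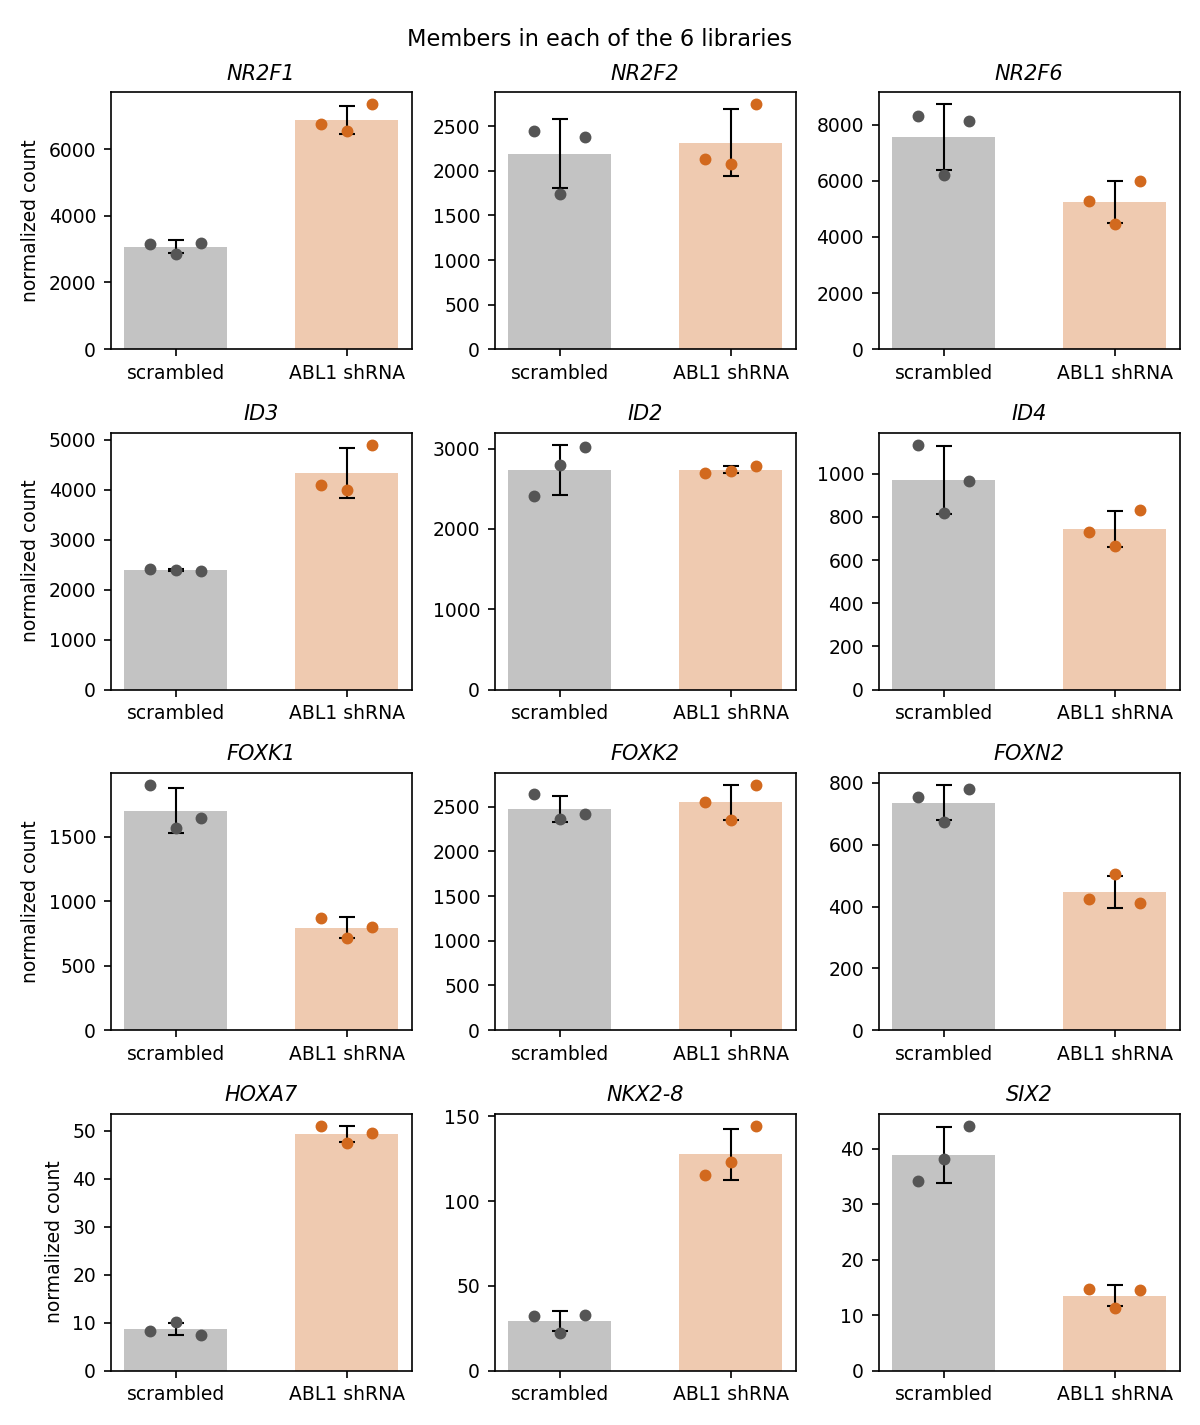
Normalized count (vertical axes) in each library (points) with the group mean (bars, starting at 0) and SD (error bars, n = 3) for members of the NR2F, ID and forkhead families and for HOXA7, NKX2-8 and SIX2. The shRNA points of NR2F1, ID3, HOXA7 and NKX2-8 lie above all scrambled points and those of NR2F6, FOXK1, FOXN2 and SIX2 below them, while the groups of NR2F2, ID2, ID4 and FOXK2 overlap.

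Of the nuclear receptors, 12 rows of 10 genes were tested, of which 2 rose and 1 fell. Thus 25% were called, beside 51.9% of all transcripts. The COUP-TF subfamily of orphan receptors had both directions. NR2F1 (COUP-TFI, chr5:93583337-93594615, plus strand, 3 exons), a regulator of neural and cardiac development, had 3166, 2869 and 3199 in scrambled and 6743, 6548 and 7346 in shRNA libraries. Every shRNA value lay well above the highest scrambled value. NR2F1 rose 2.23-fold, from 3078 ± 182 to 6879 ± 416 (SD, n = 3 each; log2 change 1.16, SE 0.07, limma adjusted p = 1.14e-07). NR2F6, a repressor of interleukin transcription in T cells, had 8320, 6214 and 8148 against 5281, 4468 and 5978. NR2F6 fell 1.44-fold with groups just apart (log2 change −0.53, SE 0.12, limma adjusted p = 0.00287). NR2F2 (COUP-TFII, row NM_021005), a venous and mesenchymal factor, had 2449, 1744 and 2382 against 2128, 2072 and 2747, with overlap (log2 change 0.08, SE 0.13, limma adjusted p = 0.626).

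THRA, the gene of thyroid hormone receptor alpha, had 45, 40.3 and 46.0 in scrambled and 61.6, 88.2 and 57.8 in shRNA libraries, the highest being shRNA replicate 2. It rose 1.58-fold (log2 change 0.63, limma adjusted p = 0.0292), and the call was lost without any 1 of the scrambled libraries or without shRNA replicate 2 (adjusted p between 0.0519 and 0.140). The models of THRA and of NR1D1, the circadian repressor REV-ERB alpha, are 160 bases apart on opposite strands. NR1D1 had a log2 change of −0.07 (limma adjusted p = 0.781). HNF4G, a hepatocyte and gut receptor, NR4A2, an immediate-early orphan receptor, and NR2C1 had log2 changes of 0.14, −0.07 and −0.22 and did not pass. ESRRA, a regulator of mitochondrial genes, had one of −0.58 (limma adjusted p = 0.316) and NR5A2, a bile acid synthesis regulator, one of 0.59 on its row NM_205860 (limma adjusted p = 0.131). HNF4G passed as a rise with equal totals, giving 3 rises and 1 fall. No CEBP or TEAD gene among the members passed: the log2 changes were −0.07 for CEBPZ, 0.50 for CEBPG and 0.18 for TEAD3, of which TEAD3 passed as a rise with quantile normalization and with equal totals.

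The members that are not transcription factor genes gave 5 rises and 4 falls among 21 tested rows. The share called was 42.9%, beside 51.9% of all transcripts. ESRP2, which encodes a splicing regulator of epithelial cells (chr16:68229126-68236584, minus strand, 15 exons), had 1192, 1040 and 1062 in scrambled and 438, 316 and 444 in shRNA libraries. All shRNA values were under every scrambled value by a wide margin. ESRP2 fell 2.75-fold, from 1098 ± 82.2 to 399 ± 71.9 (SD, n = 3 each; log2 change −1.47, SE 0.13, limma adjusted p = 1.06e-06). PAXX, a DNA end-joining factor, fell by 0.49 on the log2 scale (limma adjusted p = 0.000678). FOXO3B, a near-identical copy of FOXO3 whose reads could be split between the copies, fell by 0.33 (limma adjusted p = 0.0323), lost without scrambled replicate 1 or shRNA replicate 1 or 2 (adjusted p between 0.0710 and 0.140). That call was also lost with equal totals, quantile normalization and no variance trend (adjusted p between 0.0533 and 0.266).

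All 5 rises of that group were of antisense or divergent RNAs, which made up 17 of its 21 tested rows. Of these 17 rows 35.3% were called, beside 51.9% of all transcripts. Rises made up 29.4% of the 17 rows and 24.5% of all transcripts, and falls 5.88% and 27.4%. CEBPA-DT, transcribed divergently from CEBPA, had 514, 426 and 491 in scrambled and 894, 828 and 1018 in shRNA libraries, without overlap. It rose 1.92-fold (log2 change 0.94, SE 0.10, limma adjusted p = 1.04e-05). HOXA-AS2, described above, also rose. PAX8-AS1 rose on its row NR_047570 (log2 change 1.11, limma adjusted p = 0.00239) and by 0.36 with the reads of its rows summed (adjusted p = 0.0431). PAXIP1-AS2, whose model overlaps PAXIP1 by 6222 bases, rose (log2 change 1.19, limma adjusted p = 0.0265) but lost the call without scrambled replicate 1 or 2 or shRNA replicate 2 (adjusted p between 0.0600 and 0.103). Its mean was 9.65 in the scrambled and 22.1 in the shRNA group, so that it passed the filter only through the group where it is high. SOX9-AS1 was the only antisense RNA that fell (log2 change −1.11, limma adjusted p = 0.0122), lost without scrambled replicate 2 (adjusted p = 0.0521). NR2F2-AS1 had separate groups, all shRNA values being higher, and a log2 change of 0.71 (limma adjusted p = 0.0545), and passed as a rise with equal totals.

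Genes that work with the members were counted by list, each with its most abundant tested transcript, beside the 51.9% of all transcripts called. Of 14 tested coregulators of nuclear receptors, 5 rose and 3 fell, with a median log2 change of 0.13. PPARGC1A, a coactivator of mitochondrial and gluconeogenic genes, rose by a log2 change of 1.01 (limma adjusted p = 0.000166), NCOA5 by 0.55 (adjusted p = 0.000128) and NRIP1, a corepressor, by 0.48 (adjusted p = 0.000350), while the acetyltransferase gene KAT2B fell by 0.82 (adjusted p = 0.000381). Of 17 classical nuclear receptor target genes 1 rose and 7 fell. The sterol exporter gene ABCA1 rose (log2 change 0.80, limma adjusted p = 9.31e-07) and the estrogen-responsive gene TFF1 fell (log2 change −2.18, limma adjusted p = 5.97e-06). Of 12 circadian clock genes 3 rose and 6 fell: PER1, DBP and HLF had log2 changes of −1.61, −1.72 and −1.45 (limma adjusted p = 5.13e-08, 1.78e-07 and 3.52e-07). CRY2, 1 of the 3 rises, had a mean of 7.26 in the scrambled and 21.7 in the shRNA group, with overlapping values. It passed the filter only through the group where it is high. With equal totals the counts were 8 rises and 1 fall for coregulators, 3 and 7 for targets and 3 and 6 for clock genes.

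In the list of BMP and TGF-beta signalling genes and E proteins, the partners of the ID proteins, 5 of 13 rose and 4 fell. The receptor gene BMPR2 rose (log2 change 0.92, limma adjusted p = 4.72e-06), as did SMURF2, a ubiquitin ligase that restrains the pathway (log2 change 1.20, limma adjusted p = 2.71e-05), and the ligand gene TGFB1 fell (log2 change −0.78, limma adjusted p = 1.25e-05). Of 7 TEAD coactivator and Hippo genes 3 rose and none fell, VGLL3 by a log2 change of 1.47 (limma adjusted p = 0.00755), VGLL4 by 0.82 (adjusted p = 0.00340) and SAV1 by 0.30 (adjusted p = 0.0343). VGLL3 had a mean of 6.87 in the scrambled and 21.5 in the shRNA group, so that it passed the filter only through the group where it is high. SAV1 lost its call without scrambled replicate 1 or 2 or shRNA replicate 1 or 3 (adjusted p between 0.0599 and 0.120). Of 14 HOX cofactors and HOX chromatin regulators 2 rose and 5 fell. SUZ12, a Polycomb subunit, fell (log2 change −1.27, limma adjusted p = 3.66e-07), as did CBX7 (log2 change −0.58, limma adjusted p = 0.00112), and the H3K27 demethylase gene KDM6B rose (log2 change 0.89, limma adjusted p = 6.19e-06). With equal totals the counts were 7 rises and 3 falls, 4 and 0, and 3 and 4 for these lists.

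Marker lists of cell types were counted in the same way, beside the 51.9% of all transcripts called. The hepatocyte list includes AFP, a secreted protein of fetal liver (mean 235839 in the scrambled and 220476 in the shRNA group, limma adjusted p = 0.454), TF, the transferrin gene (114459 and 84110), and ALB, the albumin gene (84502 and 63227). TF and ALB fell, and neither passed with quantile normalization. Its summed level ran from 480618 to 539016 in scrambled and from 403614 to 448983 in shRNA libraries, with 4 of 6 tested genes fallen and none risen. With quantile normalization 1 of the 6 fell and 1 rose, and with equal totals 3 fell and 1 rose. The fibroblast and stellate list rose in 4 of 6 tested genes and fell in 1 (summed 8912 to 9908 and 13259 to 14609). Most of that sum was COL1A2 (mean 7820 in the scrambled and 11998 in the shRNA group), while COL1A1 fell (741 and 365). The biliary list fell in 3 of 5 and rose in 1 (4683 to 5479 and 2907 to 3049), and most of its sum was KRT19 (mean 3934 and 2205). The biliary rise was that of CFTR (mean 7.16 in the scrambled and 29.99 in the shRNA group). CFTR passed the filter only through the group where it is high. The endothelial list fell in 3 of 4 and rose in 1 (176 to 204 and 125 to 147). The immune list had 3 tested genes, 2 fallen and 1 risen (5714 to 6331 and 6544 to 7489). Almost all of that sum was LYZ, the gene that rose (mean 5997 in the scrambled and 6961 in the shRNA group). Of the falls, LAPTM5 (mean 24.6 in the scrambled and 4.12 in the shRNA group) likewise passed the filter only through its higher group. With quantile normalization and with equal totals the counts of the fibroblast and stellate and the biliary lists were as on the authors' scale, while with equal totals 2 endothelial genes and 1 immune gene fell. Their part in the changes of the members was not tested. All 6 libraries are of the Huh7 line, so the lists describe genes expressed in that line and not the numbers of other cell types. In such bulk libraries, a change in some of the cells and a change in every cell cannot be told apart.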

How the data were processed

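RNA-seq of total RNA from 6 Huh7 libraries was analysed, 3 per group, grouped by the shRNA named in the labels. The deposited table gives 1 signal value per transcript and library, which the authors computed. The submitters' processing notes name HISAT2 2.0.4, HTSeq 0.6.1 and build hg38. The sources used here give no strand setting and do not say how reads were assigned to single transcripts. A squared signal, divided by a step particular to its library, is a whole number plus 0.375. The reads recovered this way were whole within 0.05 for 100% of values. Multiplied by the library's relative step, they are the normalized counts used here, and the authors' scale factors are kept.

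Transcripts with a mean of at least 10 (8600) were tested with limma 3.58.1 in R 4.3.3 (lmFit, eBayes with trend) on log2(normalized count + 1). The two-sided p-values were adjusted by Benjamini-Hochberg over all of these, with a threshold of 0.05. On simulated data, 8%, 56%, 84% and 98% of 50 transcripts each were recovered at 1.25-, 1.5-, 2- and 4-fold among 8587 tested, and 10 of 133 calls were false. Only these transcripts were changed, and all transcripts had the same dispersion, whereas 4460 of 8600 were called in the real libraries. The simulated shares therefore do not measure the sensitivity of the real fit. Within groups, chi-square per degree of freedom between libraries ran from 5.92 to 10.7, so none was a duplicate. Transcript positions are from GENCODE 29 (GRCh38), matched by RefSeq identifier for 123 of 125 members, and promoters from RefSeq GRCh38.p14. Alternatives varied pseudocount, filter, scaling, variance model, replicate block, summing per gene and the omission of each library. The members and all lists were chosen with earlier results of these data known. The values of a few single members are counted but not reported here. Otherwise named are, per family, the called members and the member with the highest mean. Per list, up to 3 called genes are named by smallest p. Other uncalled members, KAT2B, CRY2 and all named marker genes were chosen after their values were seen.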

Additional observations from a re-analysis of the deposited data

How the results depend on the processing

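Of the 41 called members, 23 kept the call under all 17 alternatives, and 5 more under all but the filter of a mean of at least 30, which gave them no value. On the authors' scale 13 members rose, against 25 with equal totals, where 9 falls were lost and 12 other members newly rose. Leaving out 1 library at a time gave 11 to 13 rises and 21 to 26 falls among the members, and 1852 to 1944 rises and 2069 to 2202 falls among all transcripts. In these fits 12 called members lost their call at least once. The ABL1 row NM_005157 turned from a rise to −1.33 when reads were summed per gene, since that sum takes in the larger falling row. With replicate number as a block, 15 members rose and 28 fell, 41 of 41 calls were kept, and 2301 transcripts rose and 2520 fell. The labels state no pairing. Deviations of same-numbered libraries correlated at 0.047, 0.077 and 0.077, and not every library correlated best with its own number. In simulated data over all abundances, 56% of 1.5-fold changes were recovered, but far fewer transcripts were changed there than were called here.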

Other observations

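Of the members, 32 rows were under the filter, with 0 to 18 reads per library, and 27 genes had no tested row at all. They include the hepatic factor gene GATA4, the retinoid X receptor gene RXRA, the Hippo effector genes TEAD2 and TEAD4 and NFIX. How reads were assigned to single transcripts is not described. A row with few reads therefore does not show that its gene is hardly expressed. In 5 of the 32 rows the values of the groups did not overlap, 4 being higher and 1 lower with the ABL1 shRNA, while groups were apart in 26.8% of all 1591 rows under the filter. FOXJ3, a forkhead gene related to FOXJ2, had 1, 3 and 3 reads in the scrambled and 10, 10 and 18 reads in the shRNA libraries. Its pooled ratio after scaling was 5.96, with an exact 95% interval of 2.63 to 15.8 that covers counting error only. FOXP2, the gene of a factor of speech-related circuits, was measured on its non-coding transcript NR_033766. That row had 4, 1 and 6 reads against 9, 8 and 10, a pooled ratio of 2.69 (interval 1.29 to 6.02). FOXD4L1 had 4, 1 and 3 reads against 8, 4 and 4 (pooled ratio 2.20, interval 0.887 to 5.93). HOXA9, between HOXA7 and HOXA11 in the cluster, had 7, 1 and 4 reads against 10, 9 and 6 (pooled ratio 2.29, interval 1.11 to 5.0). NR4A1, an immediate-early nuclear receptor gene, had 16, 14 and 7 reads against 6, 4 and 6 (pooled ratio 0.475, interval 0.247 to 0.875). With no filter on low counts, FOXJ3 and FOXP2 passed in limma (adjusted p = 0.00454 and 0.0445), while HOXA9, NR4A1 and FOXD4L1 did not (adjusted p = 0.0862, 0.118 and 0.185).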
